A study of Mus musculus with 22 samples.

Results

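Arterial smooth muscle cells of the heart were compared with those of the lung, that is, muscle of the coronary arteries with muscle of the pulmonary arteries. The comparison took the 3 heart and the 3 lung libraries out of 22 libraries from 7 mouse tissues and covered 28099 genes, of which 16917 had enough signal to be tested. In this study cells were sorted by fluorescence from aorta, bladder, heart, intestine, kidney, lung and stomach, and their RNA was sequenced to ask how the cells differ between tissues. The heart mice carried Cspg4-DreERT/Acta2-CreERT/R26-GFP and the lung mice Cspg4-Dre/Acta2-CreERT/R26-GFP, so tissue and genotype cannot be told apart. Cspg4 (NG2) drives 1 recombinase and Acta2 (smooth muscle alpha-actin) the other, and the Rosa26 reporter carries GFP. All mice received tamoxifen, which activates the ERT-coupled recombinases, at 0.75 mg per 10 g body weight on 3 days, and the labels give no age, sex or strain. Each library was made from up to 10 ng of RNA by SMART-Seq v4, which copies whole transcripts from few cells. Nothing in the labels ties each library to its own animal. The p-values therefore reflect the spread among the samples at hand, which can be technical. Unless stated, that spread was estimated over the libraries of all 7 tissues, not from heart and lung alone.

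Arterial smooth muscle sets the width of a vessel by contracting when calcium rises and relaxing when cyclic GMP or cyclic AMP rises. Coronary arteries carry oxygenated blood to the heart wall and widen when the muscle needs more oxygen, and much of their smooth muscle descends from the epicardium. Pulmonary arteries form a low-pressure bed that narrows when oxygen is low, and their smooth muscle arises from the mesenchyme of the developing lung. Hox genes, T-box factors and GATA factors are transcription factors that mark such origins along the body axis and between organs.

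Values are deposited signal, a read count scaled by 1 factor per library. From the step between values, heart 1, 2 and 3 held 6469354, 7647468 and 817157 reads and lung 1, 2 and 3 held 6035682, 8554566 and 6671960. Heart 3 thus stood apart: 1 read was worth a signal of 8.09 there against 0.663 to 0.935 in the other 5 libraries, and 3445 tested genes were at 0 in heart 3 but above 0 in both other heart libraries. Its correlation with them, across genes, was 0.824 and 0.819, against 0.940 between heart 1 and 2 and 0.934 to 0.959 within lung; genes are not independent replicates. Lung 2 and 3 listed 24469 and 25608 genes above 0 against 18331 in lung 1, and 6072 genes were at 0 in lung 1 with a median signal of 1 in lung 2 and 3 in lung 3. Of those, 1561 were tested and 3 were called higher in lung. Abundant genes carry a further limit: 1556 tested genes held at least 0.5 reads per exonic base in a library. They are described as near the read ceiling, since reads of some of them differed little between libraries of unlike depth. Acta2 held 3775, 3691 and 2461 reads in heart 1, 2 and 3, while others followed depth, such as Comp with 1885, 3731 and 232. The signals of Acta2 were 3309, 2822 and 19908 in heart and 3264, 2399 and 2732 in lung. Genes near the ceiling are not all marked where their values are given below. Or51e1, Tcf15, Alkal2, Hhip, Tbx4, Foxf1, Kcnk3, Steap4, Fmod, Prg4, Pnmt, Sftpa1 and Sftpc are among them.

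Between heart and lung, 1212 of 16917 genes (7.16%) differed at a Benjamini-Hochberg adjusted p under 0.05 in limma, 462 higher in heart (2.73%) and 750 higher in lung (4.43%). Genes higher in heart included the cartilage protein Comp, the odorant receptor Or51e1 and the pericyte marker Rgs5, and those higher in lung included surfactant genes, the hedgehog inhibitor Hhip and HoxB genes. Groups did not overlap in 1196 of the 1212 genes, against 26.3% of all tested genes. The calls came from these same values, so the separation is no independent support for them. The median difference over all tested genes was -0.32 on the log2(signal + 1) scale, and -0.05 without heart 3. The share of differing genes that was higher in heart, 38.1%, moved with the processing: it was 51.3% with edgeR on rebuilt reads, 52.6% with DESeq2, 54.4% with edgeR without heart 3 and 24.6% with no filter on low signal. Without heart 3, all 1212 genes kept their direction and 687 their call. Leaving out a library cannot change the direction of a gene whose groups do not overlap, so the kept direction was largely fixed in advance. Of the 750 genes higher in lung, 196 were at 0 in every heart library. The gene lists that follow were read against the share of all tested genes called in the same direction. Besides the 2.73% toward heart and 4.43% toward lung, these shares were 2.23% and 2.5% without heart 3, 3.49% and 3.31% with edgeR, and 0.928% and 1.09% without lung 2 and 3. Among genes under the read ceiling they were 2.21% and 4.09%, and at an unadjusted p under 0.05 they were 6.78% and 15%.

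**Figure D1:**
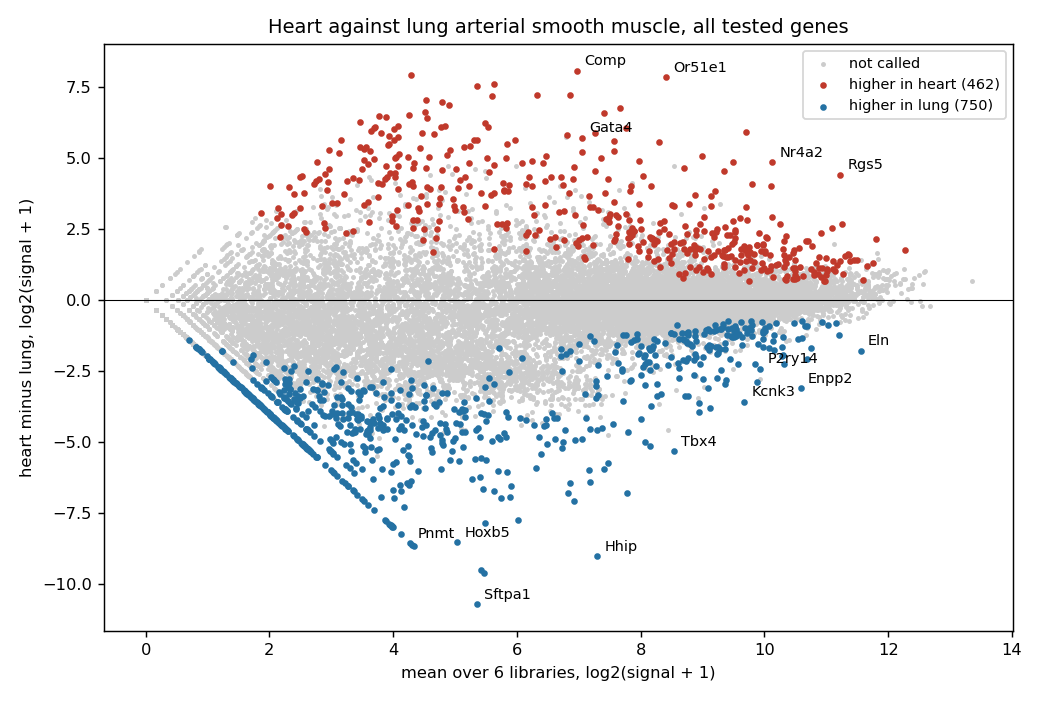
Heart minus lung difference (vertical axis, log2(signal + 1) scale) against the mean over the 6 libraries (horizontal axis, same scale) for the 16917 tested genes; red points are the 462 genes higher in heart, blue points the 750 higher in lung and grey points were not called. The straight lower edge holds genes at 0 in all heart libraries, among them Pnmt and Sftpa1.

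Comp, a matrix protein of cartilage and tendon (ENSMUSG00000031849, mm39 chromosome 8, 70826208 to 70834716), had signals of 1652, 2853 and 1877 in heart and 0, 31 and 13 in lung. The 3 heart libraries lay far above the 3 lung libraries, a log2 difference of 8.08 ± 1.57 (SE; limma adjusted p = 0.00274; 6.61 without lung 1). Or51e1, an olfactory receptor gene (ENSMUSG00000070423, chromosome 7, 102351422 to 102361271), was at 4344, 3617 and 8850 in heart and 28, 29 and 12 in lung. Its log2 difference was 7.85 ± 0.62 (limma adjusted p = 2.54e-07), and the mean of the other 5 tissues ran from 227 to 2631. Among the 15 genes with the greatest difference toward heart were also Frzb, a secreted Wnt antagonist, at 736 ± 326 (SD, n = 3) in heart and 5.33 ± 7.57 in lung, and Pde4c, a cyclic AMP phosphodiesterase, at 572 ± 140 and 3.33 ± 4.16. Tcf15, a bHLH transcription factor, had 1484 ± 537 and 9.33 ± 5.13, Alkal2, a ligand of the receptor Alk, 999 ± 247 and 10.7 ± 9.71, and Aqp7, an aquaglyceroporin, 396 ± 321 and 0.333 ± 0.577. Pcsk1, a prohormone convertase, was at 597 ± 162 in heart and at 3 in each lung library.

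Hhip, which binds and blocks hedgehog ligands (ENSMUSG00000064325, chromosome 8, 80692480 to 80784635), was at 20, 15 and 0 in heart and 4054, 4103 and 2713 in lung, a difference of -9.00 ± 1.48 (limma adjusted p = 0.00067; -7.60 without heart 3). Fendrr, a long noncoding RNA whose gene lies beside Foxf1, was at 0 in every heart library and at 383, 217 and 191 in lung. Against a floor of 3 reads per heart library, its lung signal was at least 27.1-fold higher. Tnfsf15, a TNF family cytokine, and Hpse2, a heparanase-like protein, were likewise at 0 in heart and at 252 ± 62.2 and 248 ± 79.5 in lung.

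Some genes were well expressed on both sides. Serpini1, a serine protease inhibitor, was at 4007, 3293 and 6520 in heart and 539, 304 and 124 in lung, a log2 difference of 4.01 ± 0.40 (limma adjusted p = 3.06e-06). Rasd1, a small GTPase induced by glucocorticoids, was at 4352 ± 3241 and 220 ± 49.3, and Hbegf, an EGF receptor ligand, at 2299 ± 669 and 321 ± 73.7. In the other direction, Enpp2 (autotaxin, which makes lysophosphatidic acid) was at 564, 441 and 582 in heart and 5380, 4036 and 4205 in lung, a difference of -3.10 ± 0.48 (limma adjusted p = 0.000393). F3, the tissue factor that starts clotting, was at 406 ± 251 in heart and 2588 ± 438 in lung, and Timp4, a metalloproteinase inhibitor, at 223 ± 175 and 1596 ± 180. Serpini1, Rasd1, Enpp2 and F3 were near the read ceiling.

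The label of the cells was checked against smooth muscle genes. Contractile genes were present in every library, with a summed signal over 32 genes of 68030, 69603 and 224461 in heart and 60598 to 70581 in lung. Of these 32 genes, 18 near the read ceiling, 1 was called higher in heart, both with and without heart 3, and 0 in lung (0 with edgeR and 0 at an unadjusted p under 0.05). The median of the 32 was 0.56, and 0.07 without heart 3. Acta2 (ENSMUSG00000035783, chromosome 19, 34218490 to 34232990) differed by 1.04 ± 0.50 (limma adjusted p = 0.230), a value set by heart 3: without it the adjusted p was 0.969. Myh11, the smooth muscle myosin heavy chain, was at 8697, 8901 and 29802 in heart and 9193, 7492 and 8186 in lung, where heart 1 and 2 lay within the lung range. Cspg4, which drives the other recombinase, was at 992, 1486 and 1302 in heart and 474, 243 and 250 in lung. Its groups did not overlap, but the difference of 2.02 ± 1.17 did not pass (limma adjusted p = 0.323).

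Pericyte and mural cell genes were higher in heart for 6 of 19 members and lower for 1, with 12 near the read ceiling. Without heart 3 the counts were 3 and 1, and with genes near the ceiling left out 1 and 1. Rgs5, an inhibitor of G-protein signalling used as a pericyte marker (ENSMUSG00000026678, chromosome 1, 169483070 to 169523382), was at 6788, 6120 and 32601 in heart and 465, 507 and 591 in lung. Every heart library lay above every lung library, with a log2 difference of 4.41 ± 0.65 (limma adjusted p = 0.000198; a difference of 3.63 and an adjusted p of 0.00139 without heart 3). Steap4, a metalloreductase (ENSMUSG00000012428, chromosome 5, 8010457 to 8032213), was at 3386, 3375 and 2750 in heart and 135, 195 and 90 in lung, a difference of 4.55 ± 0.59 (limma adjusted p = 5.71e-05). Colec11, a collectin, was at 1443 ± 323 and 137 ± 35.0. P2ry14, a receptor for UDP-glucose, went the other way, at 526, 365 and 396 in heart and 2649, 2017 and 2126 in lung, a difference of -2.40 ± 0.31 (limma adjusted p = 6.23e-05). The call of Higd1b depended on single libraries, with a limma adjusted p of 0.107 without heart 3.

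Markers of other cell types moved with the comparison. Of 20 lung epithelium genes, 14 were higher in lung, 12 without heart 3, 12 with edgeR and 9 without lung 2 and 3. Limma and edgeR called 0 higher in heart, with 1 at an unadjusted p under 0.05. Their summed signal was 5146, 7441 and 6983 in lung and 607, 463 and 866 in heart, where 11 to 16 members were at 0. Sftpa1, surfactant protein A of alveolar cells (ENSMUSG00000021789, chromosome 14, 40853739 to 40858409), was at 0 in every heart library and at 1141, 2101 and 1899 in lung, at least 176-fold higher against the floor. Sftpc, surfactant protein C, was at 1, 1 and 0 in heart and 1392, 1090 and 1239 in lung. Scgb1a1 of airway club cells was at 369, 153 and 228 in lung, and Nkx2-1, the lung epithelial transcription factor, at 13, 28 and 40. The calls of Ager and Rtkn2 ended without single libraries, with limma adjusted p up to 0.126 without lung 3 and 0.166 without heart 3. Whether RNA of epithelial cells accounts for other genes higher in lung was not tested.

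Cardiomyocyte genes were present in both tissues. Of 17 tested genes of ventricular or shared cardiac muscle, 1 was higher in heart and 0 in lung in limma (0 with edgeR, 1 at an unadjusted p under 0.05). Without heart 3 the counts were 2 and 0. Without aorta and heart 3 they were 6 and 0, against 901 and 892 among all tested genes. Myl2, the ventricular myosin light chain, was at 169, 263 and 421 in heart and at 1 in each lung library, a log2 difference of 7.06 ± 0.64 (limma adjusted p = 1.40e-06). Tnnt2, cardiac troponin T, was at 1573, 1303 and 1537 in heart and 549, 863 and 709 in lung. Its groups did not overlap, but the difference of 1.08 ± 1.28, with the spread taken over all tissues, did not pass (limma adjusted p = 0.655). Tnni3, cardiac troponin I, was at 391, 732 and 680 and at 54, 253 and 114 (adjusted p = 0.172). Actc1, cardiac alpha-actin and with Tnnt2 1 of the 2 most abundant members, went the other way. Near the read ceiling, it was at 418, 1229 and 979 in heart and 2544, 1836 and 2129 in lung. Its groups did not overlap either, and the difference of -1.43 ± 1.08 did not pass (limma adjusted p = 0.456). The summed signal of all 18 listed genes was 3581 to 6149 in heart and 3333 to 3852 in lung, and the ranges of the 2 tissues overlapped. Of 6 tested genes of atrial or pulmonary vein muscle 0 passed in limma, with or without heart 3, or in edgeR, and 1 had an unadjusted p under 0.05, toward heart. Of these, Myl7, the atrial light chain, was at 227, 592 and 65 in heart and 107, 367 and 156 in lung. Whether RNA of cardiomyocytes accounts for other genes higher in heart was not tested.

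Of 18 endothelial genes, 4 were higher in heart and 1 in lung, and 1 and 1 without heart 3. Their summed signal was 12272 to 13474 in heart and 6859 to 9936 in lung. Plvap, which forms the diaphragms of endothelial pores, was at 181, 220 and 49 in heart and 2155, 1828 and 1760 in lung, a difference of -3.92 ± 0.50 (limma adjusted p = 4.76e-05; -3.25 without heart 3). The endothelial genes higher in heart, Nos3, Kdr, Fabp4 and Pecam1, each lost the call without lung 3, with limma adjusted p from 0.0616 to 0.150. Cdh5, a defining endothelial cadherin, was at 391, 768 and 186 in heart and 226, 84 and 163 in lung (limma adjusted p = 0.305). Of 16 fibroblast genes 3 were higher in lung, also without heart 3, and 0 in heart (0 with edgeR and 0 at an unadjusted p under 0.05). They were Inmt, a methyltransferase, at 179 ± 127 in heart and 1416 ± 289 in lung, Col13a1, a transmembrane collagen, at 7.33 ± 9.45 and 128 ± 19.0, and Npnt, whose call ended without lung 2 (limma adjusted p = 0.0529). Of 9 leukocyte genes 1, Lyz2, was higher in lung and 0 in heart (0 with edgeR and 0 at an unadjusted p under 0.05). Ptprc, which marks all leukocytes, was at 0 in every heart library and at 0, 7 and 20 in lung. Cd74, 1 of the 2 most abundant members, was at 1118, 1207 and 671 in heart and 701, 910 and 945 in lung. Its groups overlapped and it did not pass (0.20 ± 1.43, limma adjusted p = 0.955). Lyz2, lysozyme of macrophages and alveolar cells, was at 23.3 ± 23.0 in heart and 1410 ± 179 in lung, and Lyz1 at 0 and 281 ± 157; the pair is near-identical in sequence, so reads may be split between them. In bulk libraries, fewer cells of a type and less RNA per cell cannot be told apart.

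**Figure D2:**
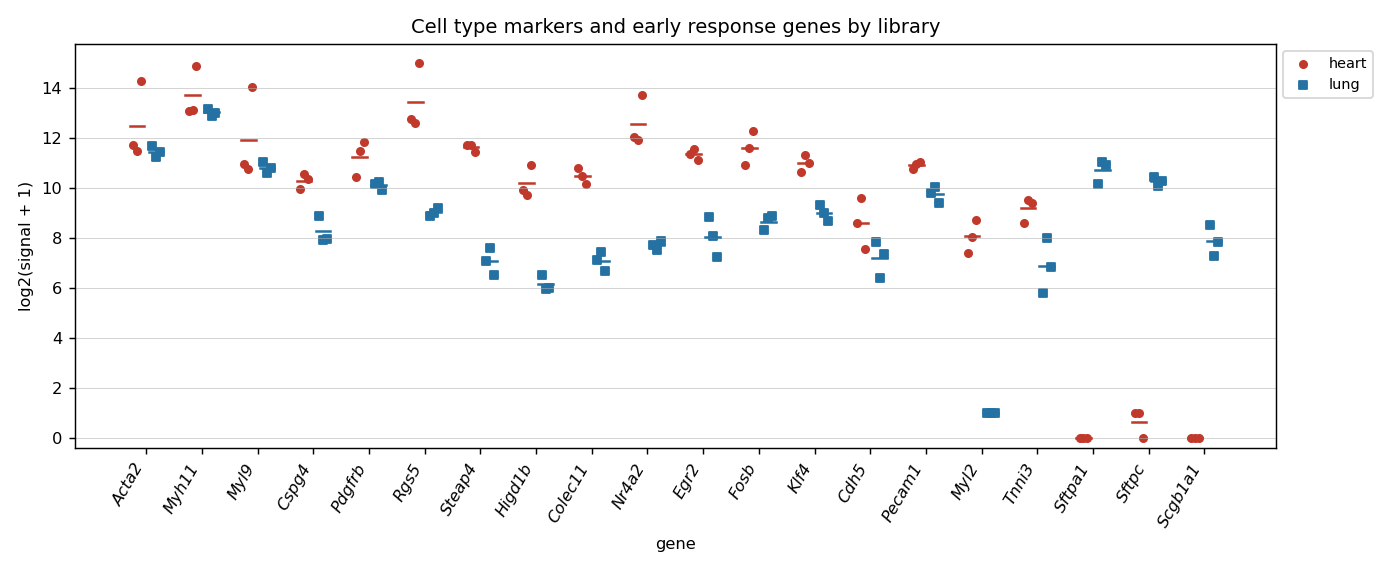
Signal of muscle, pericyte, early response, endothelial, cardiac and lung epithelial genes in each library (vertical axis, log2(signal + 1)); red circles are the 3 heart libraries, blue squares the 3 lung libraries and bars the mean of the log2 values. Rgs5 and Steap4 are separated toward heart and Sftpa1 and Sftpc toward lung, while Acta2 and Myh11 overlap apart from heart 3.

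Transcription factors of position differed between the beds. Of 31 tested Hox genes, 10 were higher in lung and 1 in heart (9 and 1 without heart 3, 10 and 1 with edgeR, 6 and 0 without lung 2 and 3), and none was near the read ceiling. Among the 10 were genes of the anterior and middle parts of 2 clusters: Hoxa2, Hoxa3, Hoxa4, Hoxa5 and Hoxa7 on chromosome 6 and Hoxb4, Hoxb5, Hoxb6 and Hoxb7 on chromosome 11. Hoxb5 (ENSMUSG00000038700, chromosome 11, 96194162 to 96196947) was at 4, 0 and 0 in heart and 611, 663 and 604 in lung, a log2 difference of -8.52 ± 0.72 (limma adjusted p = 5.86e-07). Hoxb6 was at 0 in every heart library and at 465, 378 and 331 in lung, at least 40.2-fold higher against the floor. Hoxb7 was also at 0 in heart and at 248, 205 and 194 in lung, at least 22.2-fold higher. In the HoxA cluster, Hoxa5 was at 9, 18 and 73 in heart and 477, 369 and 296 in lung (-3.96 ± 0.62, limma adjusted p = 0.000385; -4.76 without heart 3 and -3.32 without heart 1), and Hoxa7 was at 10, 1 and 40 and at 287, 299 and 278.

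Hoxa2 was at 1.67 ± 2.08 in heart and 118 ± 17.9 in lung. Hoxa3 as annotated overlaps Hoxa4 and Hoxa5, so their reads may not be separable. The call of Hoxa4 ended without heart 3 (limma adjusted p = 0.0758). Hoxd8 was the single Hox gene higher in heart, at 13, 84 and 16 against 0, 1 and 1 in lung, a difference of 4.10 ± 0.92 (limma adjusted p = 0.00867; 3.28 without heart 2). The median over the 31 genes was -1.13, against -0.32 over all tested genes. It was -0.33 with the 14 genes at 0 throughout a tissue set at the floor of 3 reads. No median of all tested genes with such a floor was made, so the -0.33 has no like value to be set against.

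Lung mesenchyme factors were higher in lung for 5 of 17 members, and for 5 without heart 3, of which 4 were the same, and higher in heart for 0 (0 with edgeR and 0 at an unadjusted p under 0.05). Tbx4, a T-box factor of lung and hindlimb mesenchyme (ENSMUSG00000000094, chromosome 11, 85777248 to 85806923), was at 14, 73 and 186 in heart and 2555, 2312 and 2177 in lung. Its groups were widely apart, with a log2 difference of -5.31 ± 1.10 (limma adjusted p = 0.00458; -6.14 without heart 3 and -4.32 without heart 1). The forkhead genes Foxf1 and Foxf2 act downstream of hedgehog signals in lung and gut mesenchyme. Foxf1 was at 506, 206 and 129 in heart and 1847, 1868 and 1760 in lung (-2.93 ± 0.35, limma adjusted p = 2.82e-05), and Foxf2 at 1, 12 and 0 and at 819, 665 and 580 (-7.85 ± 1.20, limma adjusted p = 0.000327; -7.06 without heart 3). Hhip, described above, is a hedgehog target and the fifth member is Tbx5, at 26, 28 and 89 in heart and 918, 919 and 740 in lung. The call of Tbx5 ended without any 1 of the 6 libraries, with limma adjusted p up to 0.125 without lung 2. Tbx2, the most abundant member, was at 2992, 3146 and 5331 in heart and 2711, 2486 and 2354 in lung and did not pass (adjusted p = 0.634).

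Heart and epicardial factors were higher in heart for 6 of 20 members and higher in lung for 2; without heart 3 the counts were 7 and 1, of which 5 and 1 were the same. Gata4, a zinc finger factor of the heart and epicardium (ENSMUSG00000021944, chromosome 14, 63436371 to 63509141), was at 749, 1367 and 874 in heart and 22, 29 and 8 in lung. Its difference was 5.71 ± 0.77 (limma adjusted p = 8.68e-05). Its relative Gata5 went the other way, at 7, 18 and 0 in heart and 650, 785 and 538 in lung (-6.93 ± 0.99, limma adjusted p = 0.000147; -5.72 without heart 3). Hand2, a bHLH factor of the heart and limb, was at 133, 132 and 81 against 0, 2 and 3, and Wt1, a marker of epicardium and mesothelium, at 110, 90 and 24 against 0, 1 and 5. Tlx1, a homeobox gene known for its part in spleen development, was at 73, 171 and 73 in heart and 0, 0 and 3 in lung (5.95 ± 0.57, limma adjusted p = 2.17e-06). Mef2c, a muscle transcription factor, was well expressed in both, at 1817, 2222 and 4433 in heart and 664, 764 and 465 in lung (2.08 ± 0.42, limma adjusted p = 0.00397). The calls of Zfpm2, higher in heart, and Meis1, higher in lung, ended without some libraries, with limma adjusted p of 0.0890 without lung 3 and 0.150 without heart 3.

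**Figure D3:**
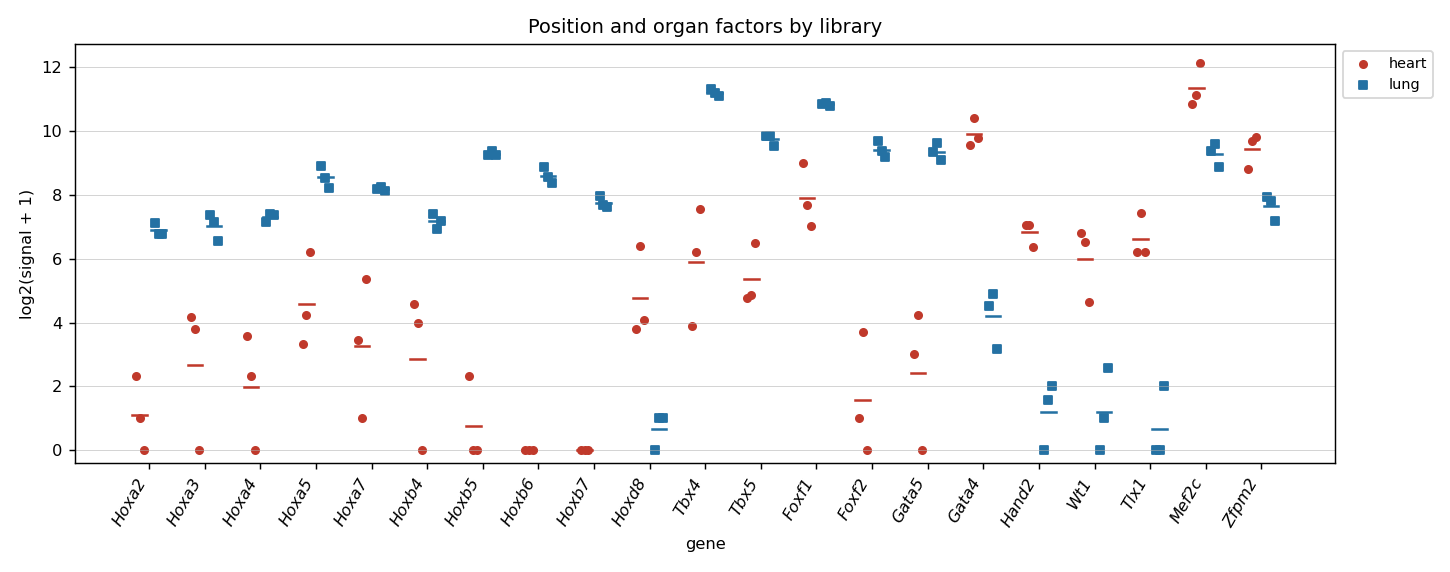
Signal of Hox genes and organ transcription factors in each library (vertical axis, log2(signal + 1)); red circles are the 3 heart libraries, blue squares the 3 lung libraries and bars the mean of the log2 values. The HoxA and HoxB genes, Tbx4, Foxf2 and Gata5 are high in lung, and Gata4, Hand2, Wt1, Tlx1 and Hoxd8 in heart.

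Receptors that set vascular tone differed in both directions. Of 55 vasoactive receptors and their partners, 5 were higher in heart and 7 in lung, and 9 and 7 without heart 3. Avpr1a, the vasopressin receptor that constricts vessels (ENSMUSG00000020123, chromosome 10, 122284404 to 122289357), was at 97, 90 and 129 in heart and 0, 1 and 1 in lung, a log2 difference of 6.05 ± 1.14 (limma adjusted p = 0.00216). The dopamine receptor Drd1 was at 61, 240 and 146 against 1, 0 and 3. The adenosine receptor Adora2b, which raises cyclic AMP, was at 243, 220 and 315 against 0, 32 and 25 (4.76 ± 0.90, limma adjusted p = 0.00213; 3.14 without lung 1). The urotensin receptor Uts2r was at 53, 130 and 113 against 0, 5 and 3, which passed in limma (adjusted p = 0.000160) but not in edgeR (adjusted p = 0.0512). The call of the adrenergic receptor Adra2b, the fifth, ended without lung 2 (limma adjusted p = 0.145).

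On the lung side, P2rx1, an ATP-gated cation channel that contracts smooth muscle (ENSMUSG00000020787, chromosome 11, 72889929 to 72906026), was at 160, 99 and 202 in heart and 1737, 1840 and 2774 in lung. Its difference was -3.80 ± 0.71 (limma adjusted p = 0.00204), and it was near the read ceiling. Both alpha1-adrenergic receptors that passed were higher in lung: Adra1d at 40, 11 and 24 in heart and 385, 379 and 456 in lung, and Adra1a at 1, 0 and 0 and at 118, 74 and 49. Tbxa2r, the thromboxane receptor, was at 383, 288 and 283 in heart and 961, 978 and 908 in lung (-1.59 ± 0.33, limma adjusted p = 0.00480). Chrm2, a muscarinic receptor of airway and visceral muscle, was at 8, 1 and 0 and at 198, 180 and 137. Npr3, which clears natriuretic peptides, was at 11.0 ± 14.2 in heart and 227 ± 99.1 in lung, and P2ry14 is given above. The endothelin receptor Ednra, the target of drugs against pulmonary hypertension, was at 1558, 1834 and 1747 in heart and 2257, 2058 and 1594 in lung and did not pass (-0.19 ± 0.57, limma adjusted p = 0.883).

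Potassium channels hold the membrane negative and so limit calcium entry. Of 26, 4 were higher in heart and 1 in lung, with the same counts without heart 3. Kcnk3 (TASK-1), a background channel whose human gene is mutated in heritable pulmonary arterial hypertension (ENSMUSG00000049265, chromosome 5, 30745514 to 30782615), was at 357, 375 and 97 in heart and 3132, 2474 and 2843 in lung. All lung libraries lay far above, a log2 difference of -3.57 ± 0.72 (limma adjusted p = 0.00399; -2.93 without heart 3). Toward heart, the inward rectifier Kcnj2 was at 76, 137 and 202 against 0, 0 and 2 in lung (6.49 ± 0.91, limma adjusted p = 0.000125). The beta subunit gene Kcnab1 was at 2262 ± 648 and 456 ± 218, and the background channel gene Kcnk1 at 139 ± 41.1 and 8.33 ± 7.64. Kcna5, a voltage-gated channel studied in hypoxic constriction, was at 1676, 1908 and 1577 in heart and 954, 757 and 846 in lung. Its groups did not overlap, but the difference of 1.01 ± 0.60, with the spread taken over all tissues, did not pass (limma adjusted p = 0.333).

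Genes of calcium entry, release and uptake were higher in heart for 9 of 42 and in lung for 2, and 5 and 0 without heart 3. Pln, which inhibits the calcium pump of the sarcoplasmic reticulum (ENSMUSG00000038583, chromosome 10, 53213763 to 53222083), was at 759, 633 and 1133 in heart and 29, 17 and 18 in lung. The groups were far apart, by 5.23 ± 0.69 (limma adjusted p = 7.35e-05). The pump itself, Atp2a2, was at 5447 ± 2665 and 2158 ± 215 and did not pass (adjusted p = 0.207). Atp2b1, the plasma membrane calcium pump, was at 1886, 1948 and 1683 in heart and 578, 605 and 316 in lung (1.93 ± 0.27, limma adjusted p = 0.000101). The T-type calcium channel gene Cacna1h was at 360 ± 192 and 16.0 ± 5.20, the cation channel gene Trpv4 at 295 ± 56.4 and 21.0 ± 19.3, and the capsaicin receptor gene Trpv1 at 117 ± 38.7 and 1.33 ± 1.15. The calls of Casq2, Ano1 and Cacna2d1 toward heart and of Casq1 and Cacnb3 toward lung ended without single libraries, with limma adjusted p from 0.0978 to 0.200 at the highest.

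Genes of cyclic GMP signalling and relaxation were higher in heart for 8 of 19 and in lung for 2. The counts were 4 and 2 without heart 3, and 3 and 1 with genes near the read ceiling left out. The list also holds Rgs2, Rgs4 and Rgs5, inhibitors of G-protein signalling. Rgs5, counted above with the pericyte genes, and Rgs4 were among the calls toward heart with and without heart 3. Rgs4, an inhibitor of G-protein signalling, was at 4450, 4096 and 13024 in heart and 704, 1176 and 1052 in lung (2.7 ± 0.46, limma adjusted p = 0.000939). Rgs2, a relative that dampens constrictor receptors, went the other way, at 624, 718 and 615 in heart and 2834, 2347 and 2214 in lung (-1.91 ± 0.34, limma adjusted p = 0.00131). Neither pair of groups overlapped, and Rgs4 and Rgs2 lay near the read ceiling. Pde1a, a phosphodiesterase activated by calcium, was at 1576 ± 173 and 651 ± 175. The 3 subunits of the nitric oxide receptor, Gucy1a1, Gucy1a2 and Gucy1b1, were called higher in heart, but each call ended without 1 or more libraries, with limma adjusted p up to 0.121 without heart 3, 0.0539 without lung 2 and 0.188 without heart 3. The same held for Pde3a and Irag1, at 0.171 and 0.200 without heart 3.

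**Figure D4:**
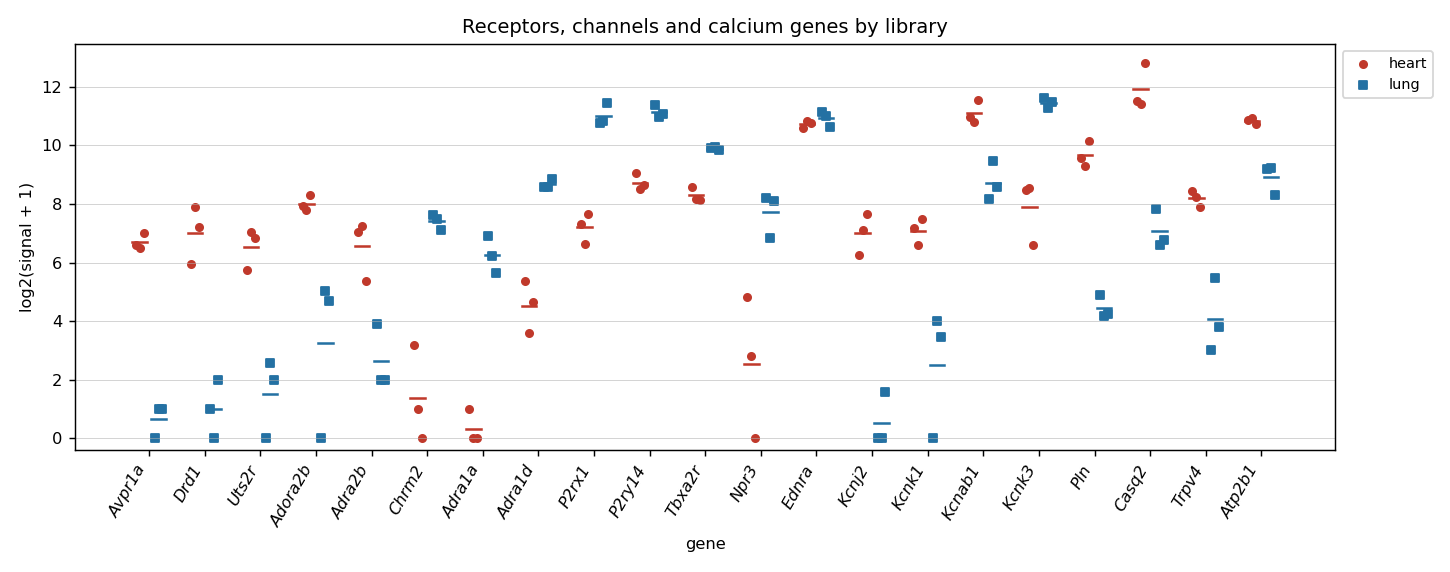
Signal of receptor, potassium channel and calcium genes in each library (vertical axis, log2(signal + 1)); red circles are the 3 heart libraries, blue squares the 3 lung libraries and bars the mean of the log2 values. Avpr1a, Drd1, Kcnj2 and Pln are high in heart and P2rx1, P2ry14, Adra1d and Kcnk3 in lung, while Ednra overlaps.

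Genes studied in pulmonary hypertension were higher in heart for 1 of 18 and in lung for 3, and 0 and 3 without heart 3. The 3 were Tbx4, Kcnk3 and Smad9, a mediator of BMP signals, which was at 0, 11 and 0 in heart and 64, 67 and 49 in lung (-4.72 ± 0.97, limma adjusted p = 0.00428; -4.13 without heart 3). The 1 was the endothelial receptor Kdr. Eng, a BMP co-receptor, was at 1935, 2788 and 1893 in heart and 1132, 1407 and 1219 in lung and did not pass (adjusted p = 0.402). Of 20 oxygen-sensing genes, 1 was higher in lung and 0 in heart in limma (1 with edgeR, 4 at an unadjusted p under 0.05). The 1 was Nox4, an oxidase that makes hydrogen peroxide, at 336, 288 and 138 in heart and 1401, 926 and 648 in lung (-1.99 ± 0.41, limma adjusted p = 0.00438; 0.0286 without heart 3).

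BMP and TGF-beta genes were higher in lung for 6 of 43 and in heart for 3, and 6 and 1 without heart 3, of which 5 and 1 were the same. Lung had more of the ligand Bmp3, at 67, 28 and 0 in heart and 1278, 939 and 1030 in lung (-6.42 ± 0.98, limma adjusted p = 0.000326; -4.60 without heart 3), and of the antagonist Nog, at 8, 1 and 0 and at 69, 46 and 22. The ligand Bmp2 was higher in heart, at 1105, 1083 and 631 against 291, 215 and 213 (1.94 ± 0.34, limma adjusted p = 0.00124). Id4, an inhibitor of bHLH factors, was at 1011 ± 259 in heart and 2489 ± 396 in lung. The calls of Bmp6 and Smad7 toward heart and Fstl3 toward lung each ended without 5 of the 6 single libraries, with limma adjusted p up to 0.151, 0.159 and 0.108.

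Among 23 Wnt ligands, inhibitors and targets, 4 were higher in lung and 2 in heart, with the same counts without heart 3. The 4 were Lgr5 and Lgr6, receptors for R-spondins, and Notum and Axin2, feedback inhibitors that Wnt signals induce. Lgr5 was at 1, 0 and 0 in heart and 196, 179 and 103 in lung (-6.94 ± 0.65, limma adjusted p = 1.81e-06). Notum was at 6, 14 and 0 and at 283, 340 and 139, Axin2 at 7, 12 and 0 and at 70, 42 and 74, and Lgr6 at 256, 259 and 97 and at 827, 1544 and 1244. The 2 toward heart were secreted inhibitors, Frzb, given above, and Wif1, whose call ended without lung 3 (limma adjusted p = 0.206). In the Notch list 3 of 20 were higher in heart, also without heart 3, and 0 in lung (0 with edgeR and 0 at an unadjusted p under 0.05). Nrarp, a feedback inhibitor that Notch induces, was at 582, 539 and 510 in heart and 86, 58 and 72 in lung (2.92 ± 0.61, limma adjusted p = 0.00532). The calls of the ligand genes Jag2 and Dll4 ended without lung 3 (limma adjusted p = 0.0819 and 0.0952).

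Matrix genes of cartilage and tendon were higher in heart for 7 of 26, 6 without heart 3 (5 of them the same), and in lung for 0 (0 with edgeR, 2 at an unadjusted p under 0.05). Of the 26, 8 were near the read ceiling, and with such genes left out the counts were 2 and 0. Besides Comp, Fmod, a collagen-binding proteoglycan, was at 2264, 3224 and 3503 in heart and 20, 164 and 189 in lung (5.08 ± 0.71, limma adjusted p = 0.000125; 4.06 without lung 1). Prg4, lubricin of joint surfaces, was at 1082, 1966 and 2168 and at 60, 13 and 5 (6.59 ± 1.02, limma adjusted p = 0.000362; 5.83 without lung 3). Thbs4, a matrix protein of tendon and heart, was at 130, 624 and 671 against 1, 10 and 7, and Clec3a, a cartilage lectin, at 68, 84 and 65 against 7, 1 and 2. The calls of Chad and Cilp ended without some libraries (limma adjusted p = 0.166 without lung 3 and 0.136 without lung 2).

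Elastic fibre genes were higher in lung for 2 of 22 and in heart for 1, and 1 and 1 without heart 3. Eln, elastin of the arterial wall (ENSMUSG00000029675, chromosome 5, 134731447 to 134776177), was at 2011, 2975 and 720 in heart and 6568, 4872 and 5463 in lung. Every lung library lay above every heart library, by a log2 difference of -1.78 ± 0.39 (limma adjusted p = 0.00652; a difference of -1.19 and an adjusted p of 0.0343 without heart 3), though Eln was near the read ceiling. Fbln2, an elastic fibre protein, was higher in heart, at 1521, 3461 and 2233 against 369, 712 and 453 (2.21 ± 0.38, limma adjusted p = 0.000990). The call of Mfap2 ended without heart 3 (limma adjusted p = 0.126). Of 18 fibrillar and beaded collagens 1 was called in lung, Col6a3, which lost the call without heart 3 (limma adjusted p = 0.0937), and 0 in heart (1 with edgeR, 1 at an unadjusted p under 0.05). Col3a1 was at 6160 ± 1000 in heart and 7073 ± 1067 in lung. Of 24 basement membrane genes 2 were called higher in lung, Npnt and Col4a6, and 0 in heart (1 with edgeR, 4 at an unadjusted p under 0.05). Without heart 3, Col4a6 had a limma adjusted p of 0.217.

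Early response genes, which cells switch on within minutes of a stimulus, were higher in heart for 10 of 29 and in lung for 0 (0 with edgeR and 0 at an unadjusted p under 0.05). Of the 29, 24 were near the read ceiling; without heart 3 the counts were 5 and 0, and with genes near the ceiling left out 2 and 0. Nr4a2, an orphan nuclear receptor (ENSMUSG00000026826, chromosome 2, 56996842 to 57014015), was at 4223, 3795 and 13453 in heart and 208, 182 and 235 in lung. Heart 1 and 2 alone lay far above lung, and the difference was 4.85 ± 0.66 (limma adjusted p = 9.93e-05; 0.000976 without heart 3). Egr2, a zinc finger factor, was at 2616, 3033 and 2233 and at 457, 271 and 149 (3.30 ± 0.42, limma adjusted p = 5.84e-05). Fosb, an AP-1 subunit, was at 1926, 3053 and 4951 and at 317, 438 and 463 (2.94 ± 0.48, limma adjusted p = 0.000613). Klf4, a factor linked to loss of the contractile state, was at 2051 ± 456 and 514 ± 110, and Dnajb1, a heat-shock co-chaperone, at 3556 ± 1385 and 1218 ± 43.7.

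Egr1 and Nr4a1, the most abundant members, did not pass (limma adjusted p = 0.201 and 0.179). Egr1 was at 5287, 4666 and 26339 in heart and 5003, 3958 and 4171 in lung, and Nr4a1 at 4323, 3856 and 21850 and at 3653, 3148 and 3201, with heart 3 far from the others in both. The calls of Nr4a3, Fosl2, Klf2, Socs3 and Btg2 ended without single libraries, with limma adjusted p up to 0.135, 0.0584, 0.152, 0.108 and 0.118.

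The promoters of the 10 members called higher in heart were read for 2 classical signal-response motifs. The CArG box is bound by serum response factor and TGACGTCA is the palindrome bound by CREB. Both strands of the 250 bases before each annotated start were searched, and no member held both motifs. Of the 10 members higher in heart, all with a promoter in the RefSeq table (GRCm38.p6), 1 held a CArG box, Egr2, and 1 held TGACGTCA, Btg2. Among all 27025 genes with a promoter the shares were 1.62% and 1.77%, and among 12326 tested genes 1.46% and 2.78%. A match in these letters is a description, and most members held neither. The windows of Egr2 (chr10:67537619-67537868, plus strand) and Btg2 (chr1:134079156-134079405, minus strand) are shown 5′ to 3′ with the match in capitals, since only these 2 of the 10 members held one. Egr2 has several annotated starts, and the window shown is 1 of those with a match.
Egr2: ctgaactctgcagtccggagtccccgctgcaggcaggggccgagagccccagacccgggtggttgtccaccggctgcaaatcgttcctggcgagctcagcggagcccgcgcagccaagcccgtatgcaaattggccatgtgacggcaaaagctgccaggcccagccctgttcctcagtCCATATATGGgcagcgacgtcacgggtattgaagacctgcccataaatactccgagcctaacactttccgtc
Btg2: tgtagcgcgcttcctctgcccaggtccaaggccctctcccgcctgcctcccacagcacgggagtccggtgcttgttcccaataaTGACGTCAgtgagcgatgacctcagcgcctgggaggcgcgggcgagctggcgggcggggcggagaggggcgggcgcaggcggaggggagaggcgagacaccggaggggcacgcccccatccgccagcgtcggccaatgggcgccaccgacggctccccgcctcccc

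Several smaller pathways differed in named steps. In retinoic acid metabolism, 3 of 19 genes were higher in heart and 2 in lung, with the same counts without heart 3. The 2 toward lung were Aldh1a2, a retinoic acid synthase, at 36, 109 and 146 in heart and 488, 796 and 570 in lung (-2.85 ± 0.56, limma adjusted p = 0.00292; -2.25 without heart 1), and Lrat, which esterifies retinol, at 1, 0 and 0 and at 65, 59 and 46. Cyp26a1, which degrades retinoic acid, was higher in heart, at 180, 415 and 154 against 0, 2 and 3 (6.63 ± 0.66, limma adjusted p = 2.91e-06; 6.03 without lung 1). Dhrs3, which reduces retinal to retinol, was at 1514 ± 87.3 and 691 ± 140, and Rdh5, a retinol dehydrogenase, at 409 ± 82.1 and 90.7 ± 18.4.

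Catecholamine genes were higher in lung for 4 of 8, also without heart 3, and in heart for 0 (0 with edgeR and 0 at an unadjusted p under 0.05). Pnmt, which makes adrenaline, was at 0 in every heart library and at 326, 385 and 415 in lung, at least 38.6-fold higher against the floor (ENSMUSG00000038216, chromosome 11, 98277276 to 98279007). Ddc, which makes dopamine, was at 0, 2 and 0 in heart and 145, 111 and 88 in lung. Slc6a2, the noradrenaline transporter, was at 0 and at 14, 56 and 43, and Maob, which breaks down amines, at 489, 447 and 89 and at 1599, 1588 and 1259 (-2.45 ± 0.55, limma adjusted p = 0.00811; -1.65 without heart 3). Among 23 genes of sterol and lipid handling, 4 were higher in heart and 1 in lung, and 2 and 1 without heart 3. Nr1h3, the sterol receptor LXR alpha, was at 182, 199 and 396 in heart and 883, 912 and 915 in lung (-1.89 ± 0.40, limma adjusted p = 0.00520). Fabp5, a fatty acid carrier, was at 277 ± 92.7 and 61.3 ± 13.3, and Mylip, which degrades the LDL receptor, at 548 ± 178 and 128 ± 7.77. The calls of Fabp4 and Lpl ended without lung 3 (limma adjusted p = 0.0616 and 0.0822).

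Interferon response genes were higher in heart for 4 of 33, 3 without heart 3, and in lung for 0 (0 with edgeR, 1 at an unadjusted p under 0.05). Oas2, an antiviral synthetase, was at 103, 105 and 170 in heart and 0, 3 and 2 in lung (5.75 ± 1.10, limma adjusted p = 0.00246; 5.16 without lung 1), and Rsad2 (viperin) at 154, 126 and 477 and at 12, 12 and 17. The calls of Isg15 and Ifih1 ended without lung 3 (limma adjusted p = 0.127 and 0.0869). Of 30 cell cycle genes 3 were higher in heart, 2 without heart 3, and 0 in lung (0 with edgeR, 2 at an unadjusted p under 0.05). These were the cyclins Ccnd1, at 431, 510 and 502 against 38, 70 and 52 (3.19 ± 0.34, limma adjusted p = 8.70e-06), and Ccnd2, at 4616 ± 2079.6 and 1475 ± 163, and Cdkn1a, an inhibitor of the cycle whose call ended without heart 3 (adjusted p = 0.164). Of 48 nuclear genes of oxidative phosphorylation 3 were called higher in heart, Cycs, Ndufs1 and Uqcrfs1, and 34 lay near the read ceiling. Without heart 3 the 3 calls ended, with limma adjusted p of 0.189, 0.0789 and 0.269.

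**Figure D5:**
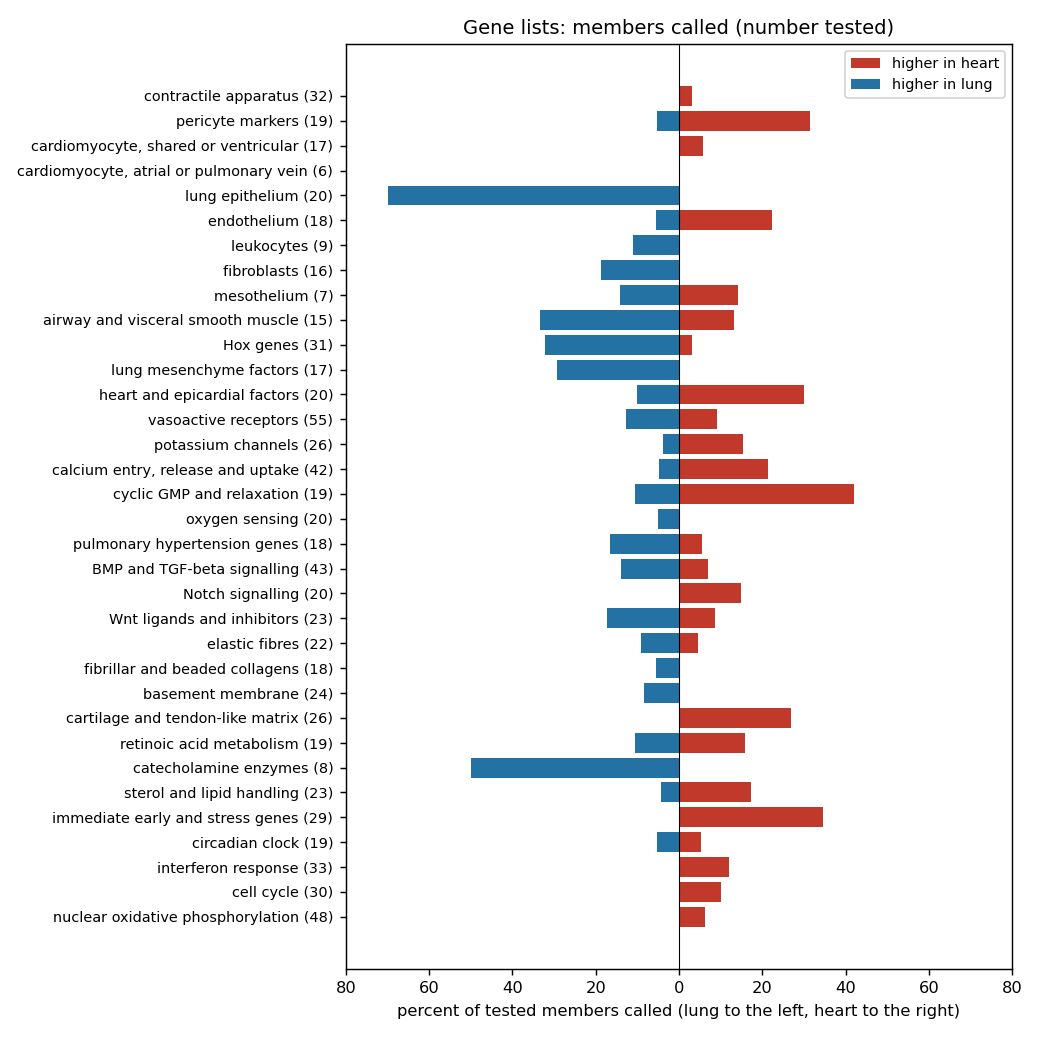
Percent of tested members of each gene list that were called at a limma adjusted p under 0.05 (horizontal axis), toward heart in red to the right and toward lung in blue to the left, with the number tested in parentheses. Lung epithelium (14 of 20) and catecholamine enzymes (4 of 8) reach farthest toward lung and cyclic GMP and relaxation (8 of 19) farthest toward heart, against 4.43% and 2.73% of all tested genes. The cyclic GMP and relaxation list also holds Rgs2, Rgs4 and Rgs5.

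Medians of the log2 differences over the tested members are given beside the -0.32 of all tested genes (-0.05 without heart 3), each with its value without heart 3 in parentheses. Among markers of other cells, the median was 1.69 (1.99) for ventricular or shared cardiomyocyte genes, 1.28 (1.46) for endothelium, 1.27 (0.95) for pericyte genes, -4.56 (-4.58) for lung epithelium and -2.42 (-0.93) for mesothelium. For leukocyte genes it was 0.09 (0.11), for fibroblast genes -0.20 (-0.15) and for atrial or pulmonary vein muscle genes 0.37 (1.04). The mesothelial median was -0.06 with the gene at 0 throughout a tissue set at the floor, which was not done for all tested genes. It was 1.55 (1.65) for heart and epicardial factors, 1.42 (1.78) for cartilage and tendon genes, 1.10 (0.41) for early response genes and 1.02 (0.90) for Notch genes. It was -2.92 (-1.03) for lung mesenchyme factors, -2.35 (-1.82) for catecholamine genes and -1.74 (-0.90) for Wnt genes. Among genes of vascular tone it was -0.26 (-0.16) for vasoactive receptors, -0.53 (0.07) for potassium channels, 0.55 (0.92) for calcium genes and 0.05 (0.52) for cyclic GMP genes, and for BMP and TGF-beta genes it was -0.19 (0.05). The medians of the potassium channel and BMP lists thus changed sign without heart 3.

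The other 5 tissues placed these differences. Of the 462 genes higher in heart, 211 had heart above the range of the other tissues' means and lung inside it, 69 had lung below the range and heart inside it, 72 had both outside and 110 both inside. Of the 750 genes higher in lung, lung alone was above the range for 231, heart alone below it for 163, both lay outside for 104 and both inside for 252. The same counts over all tested genes were not made. Genes called higher in a tissue lie toward the high end there by selection. These counts therefore do not measure how particular the genes are to heart or lung. Cyp26a1 had means of at most 2.67 in the other 5 tissues and Uts2r of at most 1.00, and Clec3a was at 0 in all of them. Pnmt, high in lung, was at most 2.33 in the others. Gata4 was higher in stomach, at a mean of 2046, than in heart, and Gata5 higher in bladder, at 1076, than in lung.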

How the data were processed

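The 3 heart and 3 lung libraries were grouped by their tissue label and compared in a table of 28099 genes and 22 libraries. The build was mm39, and DESeq2 1.36.0, DESeq, featureCounts 2.0.4, STAR 2.7.10a, Trimmomatic 0.39 and Picard 3.0.0 are listed, per the submitters' processing notes, without a stated role. The values the authors deposited are a signal, judged from the values to be reads scaled by 1 factor per library and rounded. Reads were rebuilt from the step between values; of 50 simulated steps, 4 were missed by over 1%. Exonic lengths came from GENCODE M21 for 96.2% of genes. Intervals and floors (3 reads) cover counting error only.

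The design had been written for counts, so its alternative for scaled values was used. Limma 3.58.1 (R 4.3.3) with an intensity trend was fitted to log2(signal + 1) in all 22 libraries and 7 groups, keeping genes that reached a signal of 10 in 3 or more libraries, with Benjamini-Hochberg adjustment over 16917 genes. Fold changes on this scale can understate changes of low genes. They can also overstate them for genes at 0 in heart 3, where 3 reads give a signal of 24.3. Bmp3, at 0 there, differed by -6.42 in the main fit, -4.60 without heart 3 and -4.80 with edgeR. For Hhip, also at 0 there, the values were -9.00, -7.60 and -7.83. In simulated data it recovered 96% of 8-fold and 3% of 2-fold changes and called 7 of 16893 unchanged genes. The simulation used the real depths, the same dispersion for every gene and a mean profile shared by all tissues. Changes were placed only in genes above a set signal, and no read ceiling was simulated. These rates may therefore not hold for the real data. The alternatives included edgeR 4.0.16 (quasi-likelihood) and DESeq2 1.42.0 on rebuilt reads, array weights, other filters and pseudocounts, thinned reads and leaving out libraries.

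The comparison and gene lists were chosen with earlier results of these data known. Named genes were the 15 most different in each direction (non-overlapping groups, mean signal of at least 100 in the higher tissue), the 8 with means of at least 200 in both, and for each list up to 6 called members and the 2 most abundant, with Acta2 and Cspg4. Other called list members and some markers were added after their values were seen, and not every gene the rule names is printed. Lists of glia and coronary artery disease genes are not described. A few genes named by the rule are not reported here.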

Additional observations from a re-analysis of the deposited data

How the results depend on the processing

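The count of 1212 genes (462 higher in heart, 750 in lung, 38.1% higher in heart; 158 list members) stayed within 1.5 times in most settings, and 0 of 175 called named genes changed sign in any of 21; 67 kept the call in every one. Settings that only leave out libraries cannot change the sign of a gene whose groups do not overlap. With DESeq2 2156 genes differed (1135 higher in heart, 52.6%; 247 list members), with array weights 2022 (920 in heart, 45.5%), without the 3 aorta libraries 2187 (868 and 1319) and with no filter 1965 (1481 in lung, 24.6%). With only the 6 libraries 742 differed (383 in lung, 48.4%). edgeR gave 51.3% higher in heart. Under the read ceiling the share was 35.1% with 103 list members, with a pseudocount of 10 43.7%, with a signal of at least 50 42.4% and with thinned reads 41.2%. Chosen after seeing the data were edgeR without heart 3 (397 in lung, 54.4%), no aorta and no heart 3 (901 in heart, 50.3%), and no lung 2 and 3 (341 genes, 157 and 184, 46%, 70 list members; the 1 lung library left is assumed to vary like the other groups). Leaving out 1 library gave 731 to 1556 genes, 282 to 474 in heart, 423 to 1109 in lung and 28.7% to 47.1% higher in heart: 731 without lung 3, 757 without lung 2 and 800 without heart 3. Of the 175 differences, 34 moved by over 1.5 times without heart 3, 24 without heart 1, 24 without lung 1, 16 without heart 2, 9 without lung 2 and 7 without lung 3. The cause was not tested.

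With the replicate number as a block 971 genes differed (378 and 593). Same-numbered heart and lung libraries deviated together little (correlations of 0.02, 0.07 and 0.03), and they share only a number.

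Genes whose sign changed were not called. Col1a2 (main value -0.03) was 0.09 with DESeq2, 0.01 with edgeR, 0.04 with median-of-ratios scaling, and -0.16 to 0.17 without single libraries. Dkk3 (-0.04) was 0.04 with DESeq2, 0.02 with median-of-ratios scaling, 0.01 with edgeR without heart 3, 0.01 without aorta and heart 3, and -0.20 to 0.06 without single libraries. Myl7 (0.17) was -0.07 with thinned reads, and -0.59 to 1.00 without single libraries. Without single libraries Thbs1 (0.18) ran from -0.03 to 0.52, Col1a1 (-0.21) from -0.37 to 0.04 and Sfrp2 (0.33) from -0.07 to 0.62. Thbs1 was -0.19 without lung 2 and 3, and Apoe (0.56) -0.02 with edgeR without heart 3. Depth limits heart 3, where 3 reads give a signal of 24.3.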

Other observations

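Airway and visceral smooth muscle genes were split between the beds: of 15 tested, 2 were higher in heart and 5 in lung, and 1 and 5 without heart 3. Hhip, Foxf1, Foxf2, Chrm2 and Lgr6 were the 5 toward lung and Hand2 and Ano1 the 2 toward heart, the latter not without heart 3 (limma adjusted p = 0.104). All of these calls were also counted above in other lists. Hhip, Foxf1 and Foxf2 were counted as lung mesenchyme factors, Chrm2 as a vasoactive receptor and Lgr6 in the Wnt list. Hand2 was counted as a heart and epicardial factor and Ano1 as a calcium gene. Actg2, the enteric actin, was at 1613, 1227 and 2330 in heart and 2344, 1711 and 1964 in lung and did not pass (limma adjusted p = 0.639). Whether RNA of airway muscle accounts for genes higher in lung was not tested. Of 19 clock genes 1 was higher in each tissue: the repressor Bhlhe40 at 2249 ± 391 in heart and 750 ± 192 in lung, and Rora at 634 ± 207 and 1280 ± 180, whose call ended without heart 3 (limma adjusted p = 0.0900). Rhox5, a homeobox gene of the X chromosome known from the testis, was at 267, 144 and 154 in heart and 0, 3 and 1 in lung (log2 difference 6.51 ± 0.67, limma adjusted p = 4.64e-06).

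Of 7 mesothelial genes 1 was higher in each tissue, Wt1 in heart and Krt19 in lung, and without heart 3 Wt1 alone passed. Xist, the RNA that silences an X chromosome in females, was at 0 in every heart library and at 1, 1 and 9 in lung, and the Y-linked gene Ddx3y was at 680, 1093 and 2370 in heart and 340, 525 and 245 in lung (log2 difference 1.77 ± 0.47, limma adjusted p = 0.0267; 0.169 without heart 3).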
